A study of Homo sapiens with 13 samples.

Results

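The glycolytic enzymes described here are GPI, PFKP, ALDOA, TPI1, PGK1, PGAM1, ENO1, PKM, LDHA and LDHB, read as mRNA captured with 5 biotinylated miRNA duplexes. They were chosen by name, as every probe annotated to 1 of these 10 genes. All 10 were measured, by 16 of the 12007 probes of the array table, which covers 8380 genes. ALDOA, TPI1, PGK1 and PGAM1 have 2 probes each, PKM has 3, and the other 5 genes have 1. Every group is the same line, HEK293T, an established human embryonic kidney line, transfected with 200 pmol of a synthetic duplex that carries biotin and harvested 24 h later. The duplex and the mRNA bound to it were then pulled down on streptavidin beads, and the captured mRNA was read on Illumina HT-12 bead arrays. There are 13 libraries: 3 replicates for each of miR-27a, miR-17-5p and its isomiR, miR-17-5p-iso, and 2 for each of miR-182-iso and miR-23b. No mock-transfected library is among them, and the captured RNA comes from a single line that received a duplex from outside.

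Glycolysis splits glucose into pyruvate in the cytosol. In its preparatory steps sugar phosphates are rearranged, phosphorylated and cleaved into trioses, and in its payoff steps the trioses are oxidized and ATP is made. Dividing cells in culture turn much of the pyruvate into lactate even when oxygen is present, and the mRNAs of these enzymes are among the abundant ones of such cells. A miRNA guides an Argonaute protein to mRNAs, mainly by pairing of its seed, bases 2 to 8 from the 5′ end, and an isomiR (iso) is a variant of a miRNA whose end is shifted. A shift of the 5′ end gives another seed.

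The duplexes are shown because each defines a group. The guide strands, with the seed in capitals, were as follows.
miR-17-5p: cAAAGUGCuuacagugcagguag
miR-17-5p-iso: uCAAAGUGcuuacagugcaggua
miR-27a: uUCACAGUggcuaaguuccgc
miR-23b: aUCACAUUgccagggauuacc
miR-182-iso: uGGCAAUGguagaacucacacu
No seed was shared by any 2 of the 5. The guides of miR-17-5p and miR-27a were identical to the mature RefSeq sequences of hsa-miR-17-5p (MIR17, chr13:91350618-91350640, plus strand, GRCh38.p14) and hsa-miR-27a-3p (MIR27A, chr19:13836447-13836467, minus strand). That of miR-17-5p-iso started 1 base before the RefSeq end. The miR-23b guide had the RefSeq 5′ end (MIR23B, chr9:95085265-95085287, plus strand) and 21 of its 23 bases, and the miR-182-iso guide started 2 bases after the 5′ end of hsa-miR-182-5p (MIR182, chr7:129770447-129770470, minus strand).

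Values are normalized signals on a scale close to log2, compressed for dim probes, and ran from 7.42 to 15.5 with library medians of 8.53 to 8.60. The miR-182-iso libraries stood apart: their correlation with libraries of other duplexes over all probes had a median of 0.901 over 22 pairs, against 0.932 over 45 pairs among the remaining duplexes and 0.967 over 11 pairs of the same duplex. Of 7 listed markers of the HEK293 line 5 were measured. CDH2, VIM and HEY1 had mean signals of 12.45, 11.75 and 11.25, the neurofilaments NEFM and NEFL were low at 8.41 and 7.71, and PAX2 and LHX1 had no probe in the table. Of 15 listed markers of other cell types only COL1A1 was measured, at 7.51, near the low end of the table. The table holds only probes detected in mock-transfected cells. The paper states that each miRNA was pulled down in duplicate or triplicate. Whether these pull-downs came from separate cultures is not stated in the sources used here. Each p-value thus covers no more than the spread among these pull-downs, whose small number bounds the precision.

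Each pull-down was compared with the unrelated duplexes, each miRNA family with the same weight and miR-17-5p and its isomiR as 1 family, in a limma model of all 13 libraries. A probe was called where its p, adjusted by the Benjamini-Hochberg method for all 12007 probes, was under 0.05, and every adjusted p given is of this kind. A positive difference means more captured mRNA than with the unrelated duplexes. How much of an mRNA the cell held and how well it was captured cannot be told apart in these libraries, and a difference can come from either side of a comparison.

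Most of the glycolytic enzymes had their lowest captured mRNA with miR-27a, and more of them were highest with miR-182-iso than with any other duplex. The F-test over the 5 groups called 10 of the 16 probes (62.5%), in GPI, PFKP, ALDOA, TPI1, PGK1, ENO1, PKM, LDHA and LDHB, against 42.2% of all probes and 55.1% of those at or above the median probe. The share was thus near that of other bright probes. PGAM1 was not called, at an adjusted p of 0.0815 and 0.141 for its probes. Without miR-182-iso replicate 2 the test called 6 probes. Taking for each gene its probe with the highest mean signal, miR-27a had the lowest group mean for 8 of the 10 genes and miR-182-iso the highest for 6. Over all 16 probes these counts were 12 and 8, where 26.1% of all probes were lowest with miR-27a and 31% highest with miR-182-iso. The exceptions at the low end were PGK1, lowest with miR-23b, and LDHA, lowest with miR-17-5p. Of the 40 pairs of neighbouring groups in these orders, the libraries of 15 did not overlap, against 21.5% of such pairs over all probes.

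**Figure D1:**
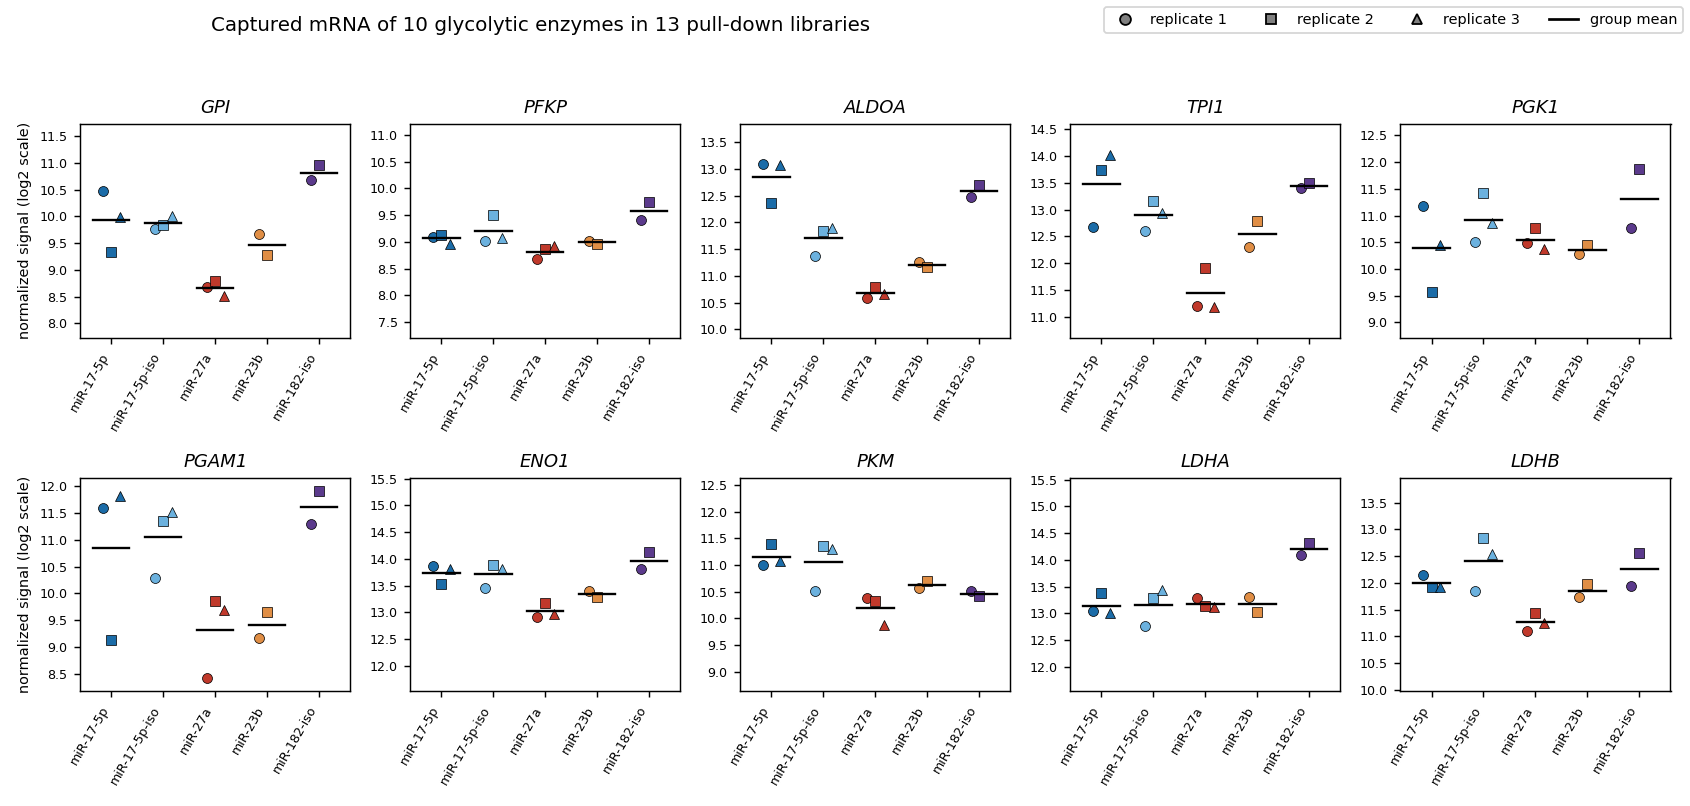
Normalized signal (log2 scale, vertical axis; every panel spans the same number of units) of the highest-mean probe of each of the 10 enzymes in the 13 libraries, by pull-down; points are libraries, with a shape for each replicate number, and lines are group means. The 3 miR-27a libraries lie below every other library for GPI, PFKP, ALDOA, TPI1, ENO1, PKM and LDHB, and the 2 miR-182-iso libraries lie above every other library for GPI and LDHA.

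The enzymes that handle hexose phosphates head the pathway. GPI, which turns glucose 6-phosphate into fructose 6-phosphate, had signals of 8.68, 8.80 and 8.51 with miR-27a, 9.66 and 9.28 with miR-23b, 9.76, 9.85 and 10.02 with miR-17-5p-iso, 10.48, 9.33 and 9.98 with miR-17-5p and 10.69 and 10.95 with miR-182-iso. The miR-27a libraries were below all others and the miR-182-iso libraries above all others, while the miR-17-5p libraries overlapped those of miR-23b and of the isomiR. The GPI difference from the unrelated duplexes was -1.40 with miR-27a (standard error 0.20, adjusted p = 0.00161 from limma). With miR-182-iso it was 1.48 (standard error 0.23, adjusted p = 0.00151), and both calls were kept under every alternative setting tried. PFKP, the platelet-type subunit of phosphofructokinase, which commits the sugar to glycolysis, moved over a narrower range. Its signals were 8.68, 8.86 and 8.92 with miR-27a, 9.02 and 8.96 with miR-23b, 9.10, 9.13 and 8.97 with miR-17-5p, 9.02, 9.51 and 9.07 with miR-17-5p-iso and 9.40 and 9.74 with miR-182-iso. Only the miR-27a libraries were clear of all the rest, and the lower miR-182-iso library was below 1 library of miR-17-5p-iso. The PFKP difference was -0.41 with miR-27a (standard error 0.12, adjusted p = 0.0252) and 0.59 with miR-182-iso (standard error 0.13, adjusted p = 0.00876). The former was not called without replicate 1 (-0.34, adjusted p = 0.112) or 2 of miR-27a, replicate 1 of miR-23b, replicate 2 of miR-182-iso or the pair of miR-182-iso libraries (-0.24, adjusted p = 0.195), and the latter not without miR-182-iso replicate 2 (0.42, adjusted p = 0.169).

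ALDOA and TPI1 make and interconvert the trioses, and their spread between duplexes was wide. ALDOA, the aldolase that cleaves fructose 1,6-bisphosphate, had signals at ILMN_1741148 of 10.59, 10.80 and 10.65 with miR-27a, 11.25 and 11.17 with miR-23b, 11.37, 11.85 and 11.90 with miR-17-5p-iso, 12.48 and 12.70 with miR-182-iso and 13.09, 12.37 and 13.08 with miR-17-5p. All neighbouring groups in this order were apart except miR-182-iso and miR-17-5p, which overlapped. The ALDOA difference was -1.35 with miR-27a (standard error 0.17, adjusted p = 8.52e-04), 1.20 with miR-182-iso (standard error 0.19, adjusted p = 0.00163) and 1.35 with miR-17-5p (standard error 0.17, adjusted p = 0.00182), and all 3 calls were kept under every setting. Without both miR-182-iso libraries the miR-17-5p value was 1.90. The other ALDOA probe, ILMN_1736700, gave differences of the same sign (-1.57, 1.89 and 1.35) and was called in none of these comparisons, since its libraries scattered, from 7.88 to 12.63 with miR-17-5p alone. TPI1, which interconverts the trioses, had signals at ILMN_2181191 of 11.20, 11.92 and 11.18 with miR-27a, 12.31 and 12.78 with miR-23b, 12.59, 13.16 and 12.94 with miR-17-5p-iso, 13.40 and 13.49 with miR-182-iso and 12.68, 13.74 and 14.02 with miR-17-5p. The miR-27a libraries lay apart from all others at both TPI1 probes. The difference of miR-27a was -1.63 at this probe (standard error 0.28, adjusted p = 0.00304) and -1.85 at ILMN_1707627 (standard error 0.35, adjusted p = 0.00462), and both were called under every setting. With miR-182-iso TPI1 was called at ILMN_2181191 (1.06, adjusted p = 0.0292) but not at ILMN_1707627 (0.88, adjusted p = 0.12). The call at the former was lost without miR-182-iso replicate 1 (1.10, adjusted p = 0.119), without its replicate 2 (1.01, adjusted p = 0.205), without replicate 1 of miR-23b and with every other pull-down in the comparator.

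PGK1 and PGAM1 follow the oxidation of the trioses, and neither was called with miR-27a or miR-182-iso against the unrelated duplexes. PGK1, the kinase that makes the first ATP of the pathway, gave a different order at each of its probes. At ILMN_1755749 the signals were 10.28 and 10.44 with miR-23b, 11.19, 9.56 and 10.45 with miR-17-5p, 10.49, 10.77 and 10.37 with miR-27a, 10.50, 11.42 and 10.86 with miR-17-5p-iso and 10.76 and 11.87 with miR-182-iso, and all neighbouring groups overlapped. At ILMN_2216852 they were 8.87 and 8.81 with miR-23b, 9.37, 9.58 and 9.42 with miR-17-5p-iso, 9.90, 9.87 and 8.94 with miR-27a, 9.62 and 9.83 with miR-182-iso and 9.91, 10.14 and 10.05 with miR-17-5p. The miR-23b libraries were below all others at the latter probe only, where the difference was -0.84 (standard error 0.21, adjusted p = 0.0377), against -0.48 at ILMN_1755749. With miR-17-5p the PGK1 probes had opposite signs, -0.34 and 0.65, and neither was called. PGAM1, which moves the phosphate of phosphoglycerate, had signals at ILMN_2112417 of 8.42, 9.86 and 9.69 with miR-27a, 9.16 and 9.65 with miR-23b, 11.59, 9.13 and 11.82 with miR-17-5p, 10.29, 11.35 and 11.52 with miR-17-5p-iso and 11.30 and 11.91 with miR-182-iso. This was the widest range of group means among the highest-mean probes of the 10 genes, 2.29, but the miR-17-5p libraries alone ran from 9.13 to 11.82, and all neighbouring groups overlapped. The PGAM1 difference was 1.72 with miR-182-iso (95% interval 0.28 to 3.16, adjusted p = 0.067) and -1.33 with miR-27a (95% interval -2.59 to -0.08, adjusted p = 0.0994).

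ENO1, PKM and the lactate dehydrogenases end the pathway. ENO1, the enolase that makes phosphoenolpyruvate, had signals of 12.92, 13.17 and 12.96 with miR-27a, 13.40 and 13.28 with miR-23b, 13.45, 13.88 and 13.81 with miR-17-5p-iso, 13.88, 13.53 and 13.81 with miR-17-5p and 13.81 and 14.12 with miR-182-iso. Only the miR-27a and miR-23b groups were clear of the rest, in that order. The ENO1 difference was -0.66 with miR-27a (standard error 0.12, adjusted p = 0.00382), kept under every setting. With miR-182-iso it was 0.61 (standard error 0.14, adjusted p = 0.00826), and 0.45 without miR-182-iso replicate 2 (adjusted p = 0.155). PKM, a pyruvate kinase, which makes pyruvate and ATP, departed from the common pattern. At ILMN_2366634 its signals were 10.38, 10.33 and 9.88 with miR-27a, 10.51 and 10.41 with miR-182-iso, 10.56 and 10.69 with miR-23b, 10.51, 11.35 and 11.29 with miR-17-5p-iso and 10.99, 11.39 and 11.08 with miR-17-5p. The miR-182-iso libraries thus lay next to the lowest group, and the PKM difference with miR-182-iso was -0.18 (95% interval from limma -0.65 to 0.29), with 0.09 and -0.32 at the other 2 probes. With miR-17-5p PKM was called at this probe (0.73, standard error 0.19, adjusted p = 0.0379) and not at ILMN_1672650 (0.31) or ILMN_1775327 (0.37). That call was lost with every other pull-down in the comparator (0.57, adjusted p = 0.0919) and when any of 8 libraries was left out: each of the 3 of miR-17-5p, both of miR-23b, both of miR-182-iso and miR-27a replicate 3 (0.61 to 0.81). With miR-27a PKM had a difference of -0.54 and an adjusted p of 0.051, with all 3 libraries below the rest.

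LDHA and LDHB are the subunits of lactate dehydrogenase, which interconverts pyruvate and lactate, and their mRNAs followed different patterns. LDHA had signals of 14.09 and 14.31 with miR-182-iso and 12.77 to 13.43 in the other 11 libraries. The other 4 group means lay between 13.15 and 13.18, so LDHA was set apart by miR-182-iso alone. Its difference with miR-182-iso was 1.03 (standard error 0.17, adjusted p = 0.00168), kept under every setting, and -0.32 with miR-27a (adjusted p = 0.117). LDHB had signals of 11.10, 11.43 and 11.25 with miR-27a, 11.73 and 11.99 with miR-23b, 12.15, 11.92 and 11.92 with miR-17-5p, 11.94 and 12.57 with miR-182-iso and 11.85, 12.84 and 12.54 with miR-17-5p-iso. The miR-27a libraries were below all others and the rest overlapped. The LDHB difference with miR-27a was -0.84 (standard error 0.20, adjusted p = 0.0125), and -0.76 without miR-27a replicate 1 (adjusted p = 0.0579). With miR-182-iso the LDHB difference was 0.48 and was not called. Several of these genes have processed copies elsewhere in the genome, and which transcripts a probe reads was not examined.

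**Figure D2:**
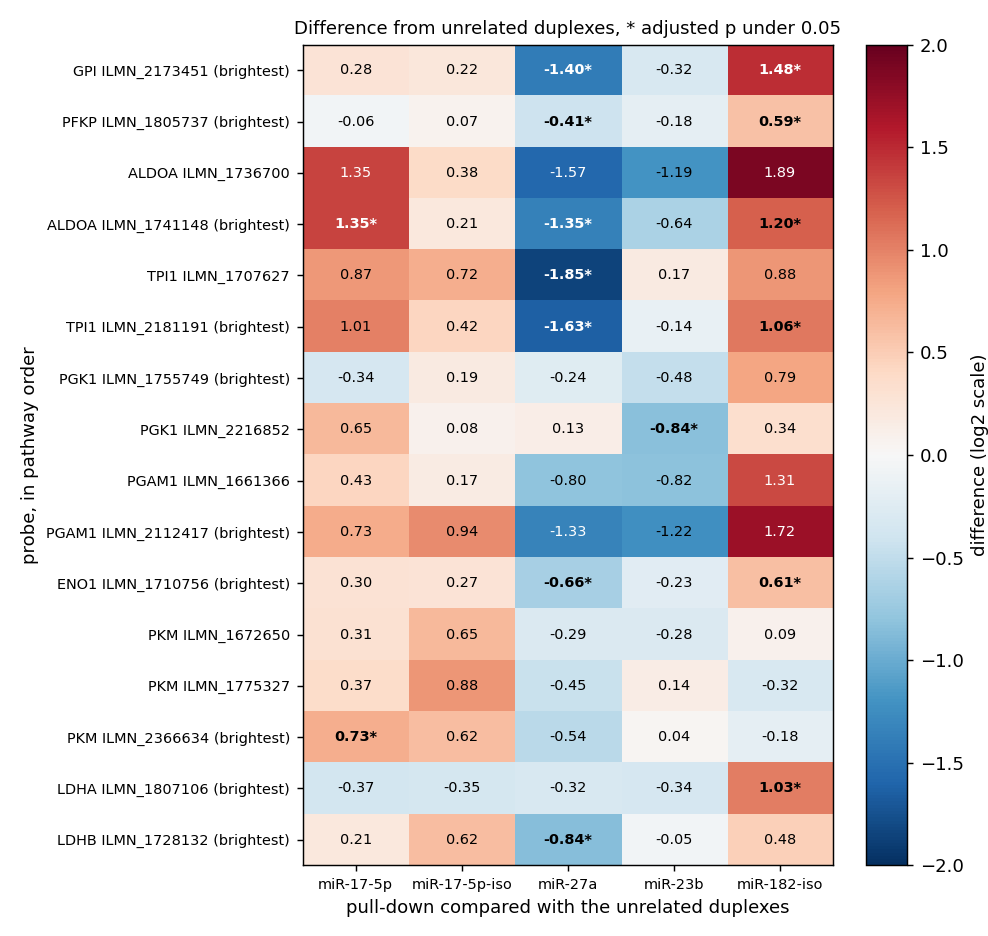
Difference in captured mRNA (log2 scale, colour and number) from the unrelated duplexes for the 16 probes of the 10 enzymes, in pathway order (vertical axis), and the 5 pull-downs (horizontal axis); an asterisk marks an adjusted p under 0.05 in limma. With miR-27a 7 probes are marked, all negative, and with miR-182-iso 6, all positive.

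The comparison of miR-27a with the unrelated duplexes asks which of these mRNAs were captured more or less with that guide. Of the 16 probes 7 were called lower, in GPI, PFKP, ALDOA, TPI1, ENO1 and LDHB, and 0 higher, where 15.1% of all probes were called lower and 15.2% higher. The differences ran from -1.85 to -0.41, or 0.277 to 0.751 times the level with the unrelated duplexes. The median over the 16 probes was -0.73, against -0.03 over all probes, and 15 were negative. In all 7 called probes every miR-27a library was below every other library, as in 5.23% of all probes. Leaving out both miR-182-iso libraries gave 6 called probes, against 6.51% of all probes lower, without PFKP, with GPI at -1.03, ALDOA at -1.06, TPI1 at -1.44 and -1.75, ENO1 at -0.52 and LDHB at -0.77. Without miR-27a replicate 3, 1 member probe was called higher.

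With miR-182-iso 6 of the 16 probes were called higher and 0 lower, where 17% of all probes were called higher and 15.4% lower. Called were those of GPI, PFKP, ALDOA, ENO1 and LDHA, and 1 of TPI1, with differences of 0.59 to 1.48. The median over the 16 probes was 0.84, against 0 over all probes, and 14 were positive. In GPI and LDHA both libraries were above every other library, as in 13.4% of all probes. Without miR-182-iso replicate 2, 3 probes were called, those of GPI, ALDOA and LDHA. That library was the lower of its group at 1 of the 16 member probes and at 49% of all probes.

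Set directly against each other, miR-27a was lower than miR-182-iso at 10 of the 16 probes, in 8 of the 10 genes, and higher at 0, where 19.9% of all probes were lower and 18.2% higher. All 16 differences were negative, with a median of -1.0 against -0.02 over all probes. This contrast shares its libraries with the comparisons above and was chosen with earlier results of these data known. As miR-27a was the lowest group for 8 of the 10 genes and miR-182-iso the highest for 6, it is no separate support for the direction. GPI had a difference of -2.16 (95% interval -2.77 to -1.55, adjusted p = 4.48e-04 from limma), ALDOA one of -1.91, TPI1 -2.02 and -2.05, ENO1 -0.95 and LDHA -1.02. PGAM1, called in neither comparison with the unrelated duplexes, was called here at both probes, at -2.29 (95% interval -3.97 to -0.60, adjusted p = 0.0368) and -1.59 (adjusted p = 0.0464). The former call was lost without any 1 of 6 libraries, replicates 1 and 3 of miR-27a and both of miR-23b and miR-182-iso, and the latter without any 1 of 9, the 3 of miR-27a, both of miR-23b, replicates 2 and 3 of the isomiR of miR-17, replicate 3 of miR-17-5p and replicate 2 of miR-182-iso. The latter was also lost with the replicate number as a block (-1.73, adjusted p = 0.0534) and with quantile normalization (-1.56, adjusted p = 0.0503). The genes not called were PGK1, at -0.77 for ILMN_1755749, and PKM, at -0.27 with an interval of -0.82 to 0.29. Without miR-182-iso replicate 2 the count was 5, since PFKP, LDHB, both probes of PGAM1 and TPI1 at ILMN_1707627 were not called.

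**Figure D3:**
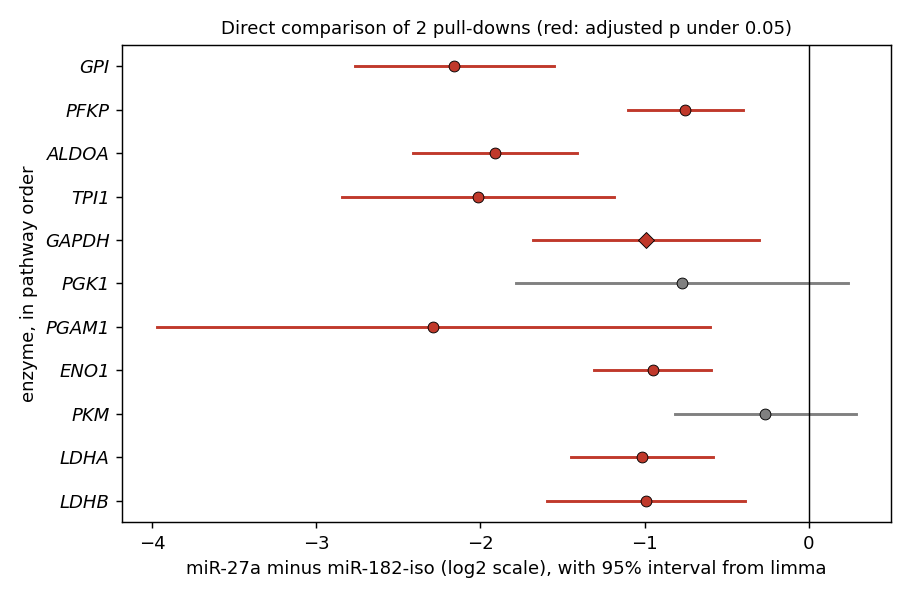
Difference between the miR-27a and miR-182-iso pull-downs (log2 scale, horizontal axis) for the highest-mean probe of each enzyme in pathway order, with the 95% interval from limma; circles are the 10 members, the diamond is GAPDH at ILMN_2038778, and red marks an adjusted p under 0.05. All points lie below 0, PGK1 and PKM are the members whose intervals cross it, and of the GAPDH probes not drawn ILMN_1343295 is at -0.75 and ILMN_1802252 at 0.15, neither of them called.

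For miR-17-5p 2 of the 16 probes were called higher, ALDOA at 1.35 and PKM at 0.73, and 0 lower, where 5.34% of all probes were called higher and 4.51% lower. TPI1 at ILMN_2181191 lay next to the threshold, at 1.01 (adjusted p = 0.0517), as did PGK1 at ILMN_2216852, at 0.65 (adjusted p = 0.0534). Leaving out replicate 2 of miR-17-5p gave 5 calls, replicate 2 of miR-27a 4 and the pair of miR-182-iso libraries 6, and there was 1 without replicate 3 of miR-17-5p or any single library of miR-23b or miR-182-iso. For miR-17-5p-iso limma called 0 of the 16 higher and 0 lower (5.11% and 2.74% of all probes), and 5 had an unadjusted p under 0.05. Its largest differences were 0.94 for PGAM1 at ILMN_2112417 and 0.88 for PKM at ILMN_1775327 (adjusted p = 0.0561), and 15 of the 16 were positive. Without miR-17-5p-iso replicate 1, 4 probes were called higher, without miR-17-5p replicate 1 there was 1, and without the miR-182-iso pair 3.

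The seed of miR-17-5p-iso is shifted by 1 base from that of miR-17-5p, and the direct comparison asks where that change goes with a different capture. ALDOA at ILMN_1741148 was higher with miR-17-5p by 1.14 (95% interval 0.69 to 1.59, adjusted p = 0.0314 from limma), with all 3 libraries above those of the isomiR. It was the only 1 of the 16 probes called, where 0.325% of all probes were called higher and 0.783% lower. This call was lost when any of 9 libraries was left out, with values of 0.97 to 1.24 and adjusted p up to 0.108, without the miR-182-iso pair (adjusted p = 0.0525), with the replicate number as a block (1.14, adjusted p = 0.0523) and with a one-sided test. These were replicate 3 of miR-17-5p, replicate 1 or 3 of the isomiR, and replicate 2 or 3 of miR-27a, either of miR-23b or either of miR-182-iso, of which the last 6 bear only on the shared estimate of the spread. The other members were not called, with 95% intervals from limma of -0.41 to 0.37 for LDHA and -0.49 to 0.60 for GPI.

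With miR-23b 1 of the 16 probes was called lower, PGK1 at ILMN_2216852, and 0 higher, where 3% of all probes were called lower and 5.91% higher. Both miR-23b libraries were below every other library at this probe, as in 3.38% of all probes. The PGK1 call was lost without miR-23b replicate 1 (-0.86, adjusted p = 0.27) or 2 (-0.81, adjusted p = 0.211), without replicate 2 or 3 of miR-17-5p-iso, 3 of miR-17-5p, 2 of miR-27a or 1 or 2 of miR-182-iso, and without the miR-182-iso pair. The count was 2 without miR-17-5p-iso replicate 1 or miR-17-5p replicate 2. ALDOA at ILMN_1741148 had a difference of -0.64 with miR-23b (adjusted p = 0.0675). Between miR-23b and miR-27a limma called 0 of the 16 probes (3.91% of all probes were higher with miR-23b and 3.15% lower), and 5 had an unadjusted p under 0.05. The TPI1 values were 1.52 and 1.11 higher with miR-23b, with adjusted p of 0.0824 and 0.105, and GPI was 0.81 higher (95% interval 0.20 to 1.42, adjusted p = 0.106). Without replicate 1 or 2 of miR-17-5p, 2 probes were called higher with miR-23b, and without replicate 3 of miR-27a 1 was called lower.

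Within a duplex, some libraries were low or high at many of the enzymes at once. The mean signal of the 10 genes was 11.21 in miR-17-5p-iso replicate 1, against 11.85 and 11.74 in replicates 2 and 3, and replicate 1 was the lowest of its group at all 16 member probes, where it was the lowest at 34.3% of all probes. In the miR-17-5p group the mean was 11.35 in replicate 2 and 11.82 and 11.81 in the others. Its replicate 2 was the lowest at 10 of the 16 probes, PGAM1, GPI and ALDOA among them, and the highest at 4. Over all probes it was the lowest of its group at 34.3%. The miR-27a libraries had means of 10.58, 10.90 and 10.65, below all the others, the miR-23b libraries 11.07 and 11.13, and the miR-182-iso libraries 11.84 and 12.21. The median SD of a member probe between replicates was 0.47 with miR-17-5p and also with the isomiR. Over all probes it was 0.20 and 0.17, and over those at or above the median probe 0.28 and 0.24. For the members it was 0.21 with miR-27a, 0.10 with miR-23b and 0.23 with miR-182-iso, against 0.18, 0.10 and 0.10 over all probes. Over the brighter probes the values were 0.24, 0.13 and 0.16. The cause of these shared shifts was not tested.

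**Figure D4:**
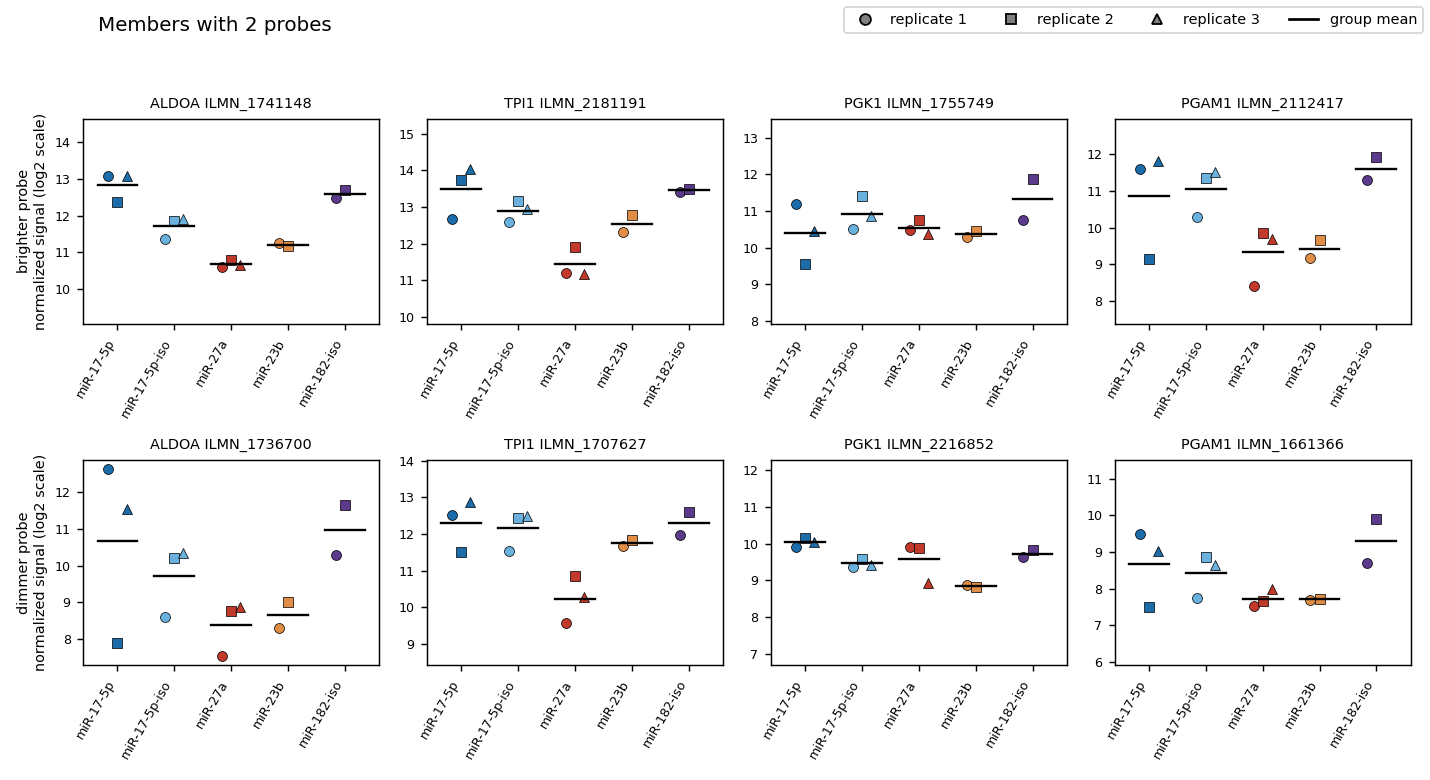
Normalized signal (log2 scale, vertical axis; every panel spans the same number of units) of both probes of ALDOA, TPI1, PGK1 and PGAM1 in the 13 libraries, by pull-down; points are libraries, lines are group means. The probes of TPI1 share the low miR-27a group, those of PGK1 give different orders, and the miR-17-5p libraries of ALDOA ILMN_1736700 run from 7.88 to 12.63.

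GAPDH, which oxidizes the trioses between TPI1 and PGK1, and other enzymes of glycolysis were read beside the members. Of 18 listed, 11 were measured, and with miR-27a 3 of the 11 were lower and 0 higher, where 16.8% of all 8380 genes were lower and 17.1% higher, with a median of -0.10. They were GAPDH, PGAM4 and HK1, the hexokinase that starts the pathway, which was at -0.65 (adjusted p = 0.0139 from limma). GAPDH at ILMN_2038778 had signals of 11.78, 12.13 and 12.18 with miR-27a, 12.98 and 13.04 with miR-23b, 13.18 and 12.87 with miR-182-iso, 12.93, 13.72 and 13.35 with miR-17-5p-iso and 14.20, 13.23 and 14.22 with miR-17-5p. The miR-27a libraries were again below all others, at -1.18 (standard error 0.23, adjusted p = 0.00515), and the miR-17-5p value was 1.20 (adjusted p = 0.0124). The other GAPDH probes were lower with miR-27a too, at -1.15 and -0.69, and ILMN_1802252 was also higher with miR-17-5p-iso (0.75, adjusted p = 0.00354) and with miR-23b (0.79, adjusted p = 0.0094). With miR-182-iso none of the 3 GAPDH probes was called higher: ILMN_2038778 was at 0.14 (adjusted p = 0.718), ILMN_1343295 at -0.15 (adjusted p = 0.674), and ILMN_1802252 was lower, at -0.88 (adjusted p = 0.00108). Against miR-182-iso directly, miR-27a was lower at ILMN_2038778 (-0.99, adjusted p = 0.0284) but not called at ILMN_1343295 (-0.75, adjusted p = 0.0579) or ILMN_1802252 (0.15, adjusted p = 0.473). With miR-182-iso 3 of the 11 were higher and 1 lower (16.9% and 17.3% of all genes). Higher were the aldolase ALDOC at 1.12, HK1 at 0.54 and the liver-type phosphofructokinase PFKL at 0.37. The hexokinase HK2 was lower, at -0.56. PFKL was dim, at a mean signal of 7.82, where the scale is compressed. PGAM4, a near-identical retrocopy of PGAM1, was at -1.01 with miR-27a at its highest-mean probe, ILMN_1706841 (adjusted p = 0.0437), and was not called at its other 2 probes (-0.97, adjusted p = 0.157, and -0.64, adjusted p = 0.196). Which of these RNAs the probes read is uncertain. ADPGK, an ADP-dependent glucokinase, was lower with miR-17-5p, at -0.51. For that duplex calls covered 5.81% of the 8380 genes upward and 4.9% downward. At the highest-mean probes 0 of the 11 were called with miR-17-5p-iso or miR-23b, where 4 and 3 had an unadjusted p under 0.05. The corresponding shares of the 8380 genes were 5.47% upward and 3.13% downward for the isomiR, and 6.67% and 3.25% for miR-23b. With 11 genes, 0 calls cannot be told from shares this small.

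Transporters and regulators of the pathway were measured by 11 of 15 listed genes, and with miR-27a 3 were lower and 3 higher, against the same 16.8% and 17.1% of all genes, with a median of 0.01. BSG, the chaperone of the lactate transporters, was at -0.71, PFKFB3, which makes an activator of phosphofructokinase, at -0.66 and the glucose transporter SLC2A1 at -0.55. PGM2, a phosphopentomutase, was at 0.52. With miR-182-iso 10 of the 11 differences were positive, with a median of 0.29, where 3988 of all 8380 genes were positive. Of the 11, 3 were called: BSG (0.82) and SLC2A1 (0.64) were higher and PGM2 (-0.47) was lower. These shares, 18.2% higher and 9.09% lower, were near or below the 16.9% and 17.3% of all genes. SLC2A3, a glucose transporter of high affinity, set the miR-17 duplexes apart. Its signals were 9.21, 8.89 and 8.67 with miR-17-5p, 11.49, 10.80 and 11.26 with miR-17-5p-iso and 9.70 to 10.22 in the other 7 libraries. The miR-17-5p libraries were below all others and those of the isomiR above all others. The direct difference was -2.26 (standard error 0.21, adjusted p = 0.00268 from limma), and the differences from the unrelated duplexes were -1.03 (adjusted p = 0.00719) and 1.23 (adjusted p = 0.00258). SLC2A3 was the only 1 of the 11 called in each of these comparisons. Of all genes 0.907% were lower with miR-17-5p than with its isomiR. Against the unrelated duplexes 4.9% were lower with miR-17-5p and 5.47% higher with the isomiR. TIGAR, a phosphatase that lowers fructose 2,6-bisphosphate, was lower with miR-23b, at -0.65 (adjusted p = 0.00869).

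The pentose phosphate pathway, which branches off at glucose 6-phosphate and makes NADPH and ribose, was measured by 6 of 7 listed genes. With miR-27a 4 of the 6 were called lower and 0 higher, where 16.8% of all genes were lower and 17.1% higher. The median over the 6 was -0.59. Called were TALDO1, the transaldolase, at -0.91, and the lactonase PGLS at -0.84. So were the dehydrogenase PGD at -0.60 (adjusted p = 0.0499 from limma) and the transketolase TKT at -0.58. Without both miR-182-iso libraries in the comparator, an alternative chosen after seeing the data, only PGLS was called (-0.80, adjusted p = 0.00861), TALDO1 was at -0.38 (adjusted p = 0.173), TKT at -0.20 (adjusted p = 0.532) and PGD at 0.04 (adjusted p = 0.919), and the median was -0.08. In that fit 7.61% of all genes were called lower. Of the other lists GAPDH was still called lower then (-1.28, adjusted p = 0.0136), and HK1 (-0.52), PGAM4 (-0.80), BSG (-0.49), PFKFB3 (-0.58) and SLC2A1 (-0.38) were not called. Of the 11 transporters and regulators 2 were called higher in that fit and 0 lower, where 7.77% of all genes were higher. They were TIGAR (0.52, adjusted p = 0.0127 from limma) and HIF1A (0.60, adjusted p = 0.0245), and PGM2 was not called (0.41, adjusted p = 0.0576). With miR-182-iso 3 of the 6 pentose phosphate genes were higher and 0 lower, where 16.9% of all genes were higher and 17.3% lower. The median over the 6 was 0.80. PGD had signals of 11.18 and 11.75 with miR-182-iso and 9.11 to 10.21 in the other 11 libraries. Its difference was 1.90 (standard error 0.23, adjusted p = 4.92e-04), that of TALDO1 1.72 and that of TKT 1.20. Each had both libraries above all others, as in 13.4% of all probes. PGLS was higher with miR-17-5p (1.25, adjusted p = 7.15e-04) and with its isomiR (0.60, adjusted p = 0.0178). TALDO1 was lower with miR-23b, at -0.87.

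Entry of pyruvate into mitochondria was measured by 9 of 13 listed genes, with medians of 0.06 with miR-27a and 0.00 with miR-182-iso. With miR-27a 3 of the 9 were higher and 0 lower, where 17.1% of all genes were higher and 16.8% lower. They were MPC1, of the mitochondrial pyruvate carrier, at 0.67, and the pyruvate dehydrogenase components DLAT at 0.45 and PDHX at 0.41. Without both miR-182-iso libraries 0 of the 9 were called, where 7.77% of all genes were higher. There MPC1 was at 0.43, DLAT at 0.46 and PDHX at 0.26. With miR-182-iso 2 were lower and 0 higher, where 17.3% of all genes were lower and 16.9% higher. The share lower, 22.2%, was thus near that of all genes. Those 2 were MPC1 at -0.85 and PDHX at -0.53. The MPC1 signals were 11.73 and 11.15 with miR-182-iso and 11.81 to 12.79 in the other libraries. Of the genes of gluconeogenesis 2 of 6 were measured, and PCK2, the mitochondrial carboxykinase, was higher with miR-182-iso at 0.32 (adjusted p = 0.03).

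**Figure D5:**
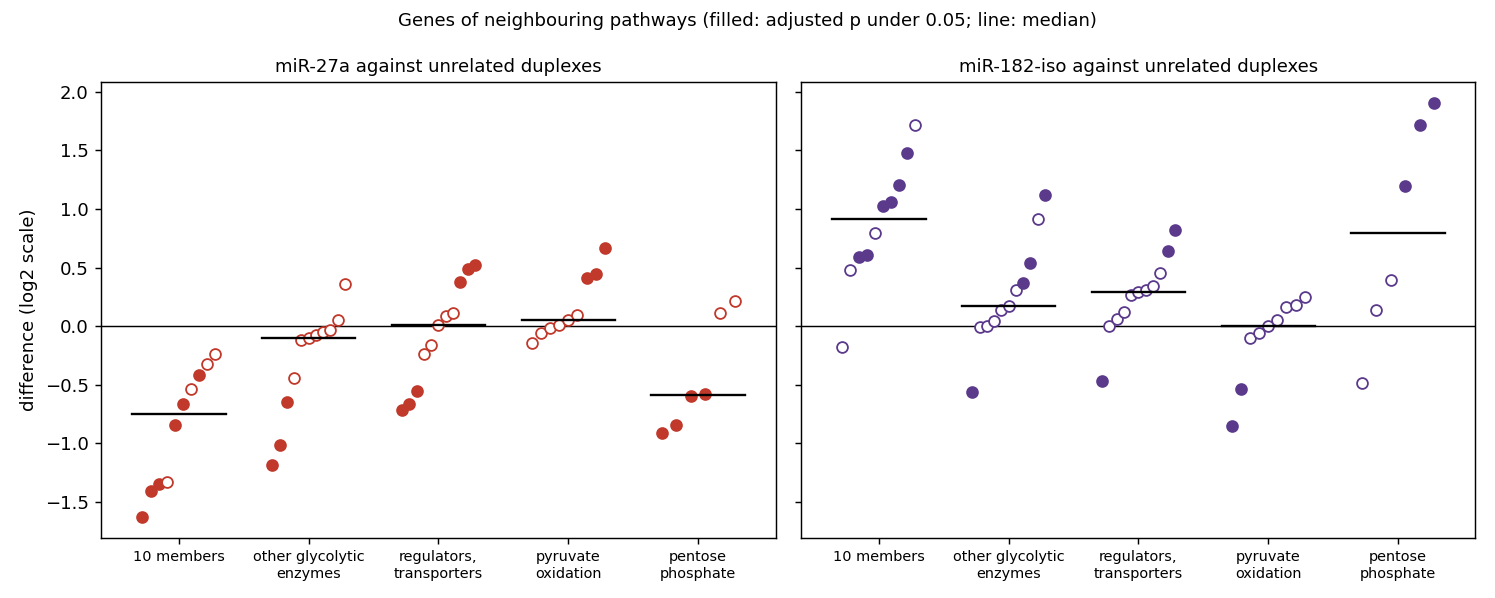
Difference from the unrelated duplexes (log2 scale, vertical axis) with miR-27a and with miR-182-iso for the 10 members and 4 lists of related genes (horizontal axis); each point is a gene at its highest-mean probe, filled points have an adjusted p under 0.05 in limma, and lines are medians. With miR-27a all 10 members lie below 0, and with miR-182-iso 9 of 10 lie above it. Each of these duplexes is part of the comparator of the other, and miR-27a was not the lowest group for PGK1 or LDHA.

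For the 3 members with the widest range of group means, the genes outside these lists whose 5 group means ran most nearly in parallel were sought, by the root mean square distance between centred group means over 8325 genes. For GPI they were the proteasome subunit PSMB5, at a distance of 0.119, the chaperone HSPA1A at 0.136 and the helicase EIF4A1 of translation initiation at 0.139. For ALDOA they were RABAC1 and the cytokine MIF, both at 0.188, and UBA1, which activates ubiquitin, at 0.194. For PGAM1 they were the elongation factor subunit EEF1G at 0.174, NBPF10 at 0.200 and the Mediator subunit MED20 at 0.228. These distances describe 5 means each and carry no test.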

How the data were processed

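HEK293T cells received 1 of 5 biotinylated duplexes, and the captured mRNA was read on Illumina HT-12 arrays. The study used more than 1 array version, and no source used here assigns libraries to versions. The authors made the deposited log2-scale values with lumi 2.2.1 (background adjustment, variance-stabilizing transformation, robust spline normalization) and kept probes detected in all mock-transfected controls. A second table, of non-normalized signals, has columns that match no label and was not used. Groups and replicate numbers came from the sample titles.

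Gene symbols came from the annotation of the platform, updated through RefSeq for 10442 of 10444 probes with 1 symbol. Where a gene has several probes, that of the highest mean signal stands for it. Differences were fitted with limma 3.58.1 in R 4.3.3 (lmFit, contrasts.fit, eBayes) in 1 model of 5 groups, two-sided, with Benjamini-Hochberg adjustment over 12007 probes and calls at 0.05. No library pair had identical values. On simulated data limma recovered 68.5 to 94% of probes with a log2 change of 1, over 8 comparisons of 12007 probes. The changed probes were drawn at random and their noise was independent. That share need not hold for the members, whose median SD with miR-17-5p was 0.47, against 0.20 over all probes. Duplex sequences came from the supplementary table of the study and were matched to mature miRNAs of RefSeq (GRCh38.p14). Python 3.11.15 with pandas 2.3.3, numpy 2.4.6 and matplotlib 3.10.9 served for tables and plots. All members and probes are named, and of each related list at most 4 called genes in a comparison, those with the largest differences. The members, lists and comparisons were chosen with earlier results of these data known. The alternatives were a block for the replicate number, another comparator, an adjusted p under 0.01, one-sided tests, quantile normalization, only probes at or above the median probe, the highest-mean probe of each gene, a trend in eBayes, and leaving out each library or both miR-182-iso libraries.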

Additional observations from a re-analysis of the deposited data

How the results depend on the processing

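Of 27 called member differences, 14 were kept in every setting tried. Over 539 pairs of a difference and a setting, 467 kept the call, 72 lost it and 0 changed sign. Of the 27, 9 were lost at an adjusted p under 0.01 and 12 without miR-182-iso replicate 2. The counts of member probes moved as follows. Higher with miR-17-5p were 2; the count was 1 with every other pull-down as comparator and at an adjusted p under 0.01, 4 one-sided, with quantile normalization and among the brighter probes, 6 without the miR-182-iso pair, and 1 to 5 without each replicate in turn. Higher with miR-17-5p-iso were 0, against 1 one-sided, with a trend and among the brighter probes, 3 with both miR-182-iso libraries left out, and 0 to 4 without each replicate. Lower with miR-23b was 1, against 2 with every other pull-down as comparator, 0 at an adjusted p under 0.01, one-sided, with the highest-mean probe and without both miR-182-iso libraries, and 0 to 2 without each replicate. Higher with miR-17-5p than with its isomiR was 1, against 0 at an adjusted p under 0.01, one-sided and without both miR-182-iso libraries, and 0 to 1 without each replicate. Lower with miR-27a were 7, and 5 to 10 over all settings and replicates left out, with 0 to 1 higher. Higher with miR-182-iso were 6, and 3 to 9 without each replicate, and lower with miR-27a than with miR-182-iso 10, and 5 to 11. Higher with miR-23b than with miR-27a were 0, against 1 for the brighter probes and 0 to 2 without each replicate, and lower were 0, against 0 to 1. The F-test called 10, against 5 at an adjusted p under 0.01 and 6 to 12 without each replicate. The cause of these shifts was not tested.

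Replicate numbers were not taken to pair the libraries. Of the same-numbered pairs of different duplexes 13 of 23 had deviations that correlated above 0.1, against 16 of 44 of the other pairs. The same-numbered pairs correlated at -0.334 to 0.631 (median 0.14), and the other pairs had a median of -0.08. In a group of 2 libraries the deviations mirror each other, so the 2 kinds of pair are not independent. These values do not settle whether the numbers pair the libraries. The same-numbered pairs among replicates 1 and 2 of miR-17-5p-iso, miR-23b and miR-27a were at 0.45 to 0.631, and the negative ones all involved miR-17-5p. Replicate 2 of miR-17-5p instead correlated at 0.292 to 0.516 with replicate 1 of the other duplexes. A block for the replicate number does not follow that, and a batch shared across duplexes was not tested. With the replicate number as a block, the counts were 4 higher with miR-17-5p, 7 lower with miR-27a, 7 higher with miR-182-iso, 9 lower with miR-27a than with miR-182-iso, 0 higher with miR-17-5p than with its isomiR, and 10 in the F-test. Groups of 2 or 3 arrays, and a compressed scale for dim probes such as PKM ILMN_1672650, at a mean of 7.83, limit the precision.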
